A study of Arabidopsis thaliana with 6 samples.

Results

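Plant intracellular immune receptors of the nucleotide-binding site and leucine-rich repeat type (NBS-LRR, also called NLR) were examined in Arabidopsis thaliana leaves of a mutant labelled brm, the gene of the chromatin remodelling ATPase BRAHMA. The genes were taken by one rule, the words "disease resistance protein" in the title that the deposited table gives each probe set. The rule found 168 of 22746 probe sets, each with a locus code of its own. Titles named a TIR domain for 105 of them (80 TIR-NBS-LRR, 15 TIR-NBS and 10 TIR) and a coiled-coil (CC) domain for 37 (34 CC-NBS-LRR and 3 CC-NBS). A further 8 titles read NBS-LRR without either domain, and 18 named no domain. Not every gene taken by the rule is therefore a receptor: among the 18 are EDS1, a lipase-like signalling protein, and RAR1 (symbol PBS2 in RefSeq), a co-chaperone, both of which act with receptors. DAR4, which is known to carry receptor domains, is also among the 18 because its title names only a LIM domain.

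The comparison was between 3 ATH1 arrays of the mutant, which sample titles call essp3/brm5 and the extraction protocol essp3/brm-6, and 3 arrays of the wild-type line ProβCG:GUS. In that line the promoter of a β-conglycinin seed storage protein gene drives the β-glucuronidase reporter. The labels do not give the lesion, and they do not say whether the mutant carries the reporter. Leaves came from seedlings 2 weeks old on MS agar with 1.5% sucrose, under 16 h of light at 22 °C and 8 h of dark at 20 °C, and the 3 samples per genotype are labelled as biological replicates. Array names in the file header give genotype and replicate, and the labels name no batch. If the arrays of each genotype were processed apart, batch and genotype could not be told apart.

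NBS-LRR receptors detect pathogen effector proteins inside the plant cell, often through the changes that effectors make to other host proteins. Receptors with an N-terminal TIR domain signal through EDS1 and its partners PAD4 and SAG101 and through helper receptors of the ADR1 and NRG1 families, whereas many CC receptors signal at the plasma membrane. Their genes often stand in clusters of close relatives, and their level is held in check because too much receptor can set off defence without a pathogen, at a cost to growth.

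The array values are MAS5 signals on a linear scale, with a call of Present, Marginal or Absent for each probe set and array. Correlations of log2 signals were 0.961 to 0.978 within a group and 0.899 to 0.936 between groups. Leaf mesophyll markers (RBCS1A, RCA and CA1) were Present on all 6 arrays, as were the phloem marker SUC2 and the guard cell marker FAMA, and none of these 5 passed the test. The guard cell marker MYB60 fell by 1.31 on the log2 scale (adjusted p = 0.000438). The meristem markers STM, WUS and CLV3 and the seed markers CRU3, SESA1 and OLEO1 had no Present call, and of 4 root markers 1 (COBL9, symbol SHV2) had a single one. A control for 25S ribosomal RNA read 371 to 483 on the mutant arrays and 4149 to 7797 on the wild-type arrays, while the actin 3′ to 5′ ratio was 2.57 to 2.86 and 2.29 to 2.61 and the GAPDH ratio 1.44 to 1.70 and 1.68 to 1.83. The part of these differences in the results below was not tested, and in whole leaves fewer cells of a type and less RNA per cell cannot be told apart.

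Many of the receptor genes were not called Present in these leaves in either genotype. Of the 168 genes, 75 had no Present call on any array, 19 had 1 or 2, and 50 were Present on all 6. The test needed a Present call on 3 or more of the 6 arrays, which kept 74 of the 168 genes (44.0%) and 13626 of all 22746 probe sets (59.9%). By class the tested share was 37 of 80 TIR-NBS-LRR genes, 10 of 15 TIR-NBS genes, 14 of 34 CC-NBS-LRR genes and 0 of 8 titled NBS-LRR alone. Present calls among the 168 numbered 75, 70 and 62 on the mutant arrays and 73, 74 and 66 on the wild-type arrays, so the groups overlapped. Calls in only one genotype were found for 16 genes, 6 in the mutant and 10 in wild type, with at most 2 Present calls each. No gene was Present on all 3 arrays of one genotype and on none of the other. Calls in only one genotype were not counted over all 22746 probe sets, so nothing particular to receptor genes is read from them. Of all probe sets, 56.3% to 60.1% were Present on the mutant arrays and 57.6% to 60.3% on the wild-type arrays.

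**Figure D1:**
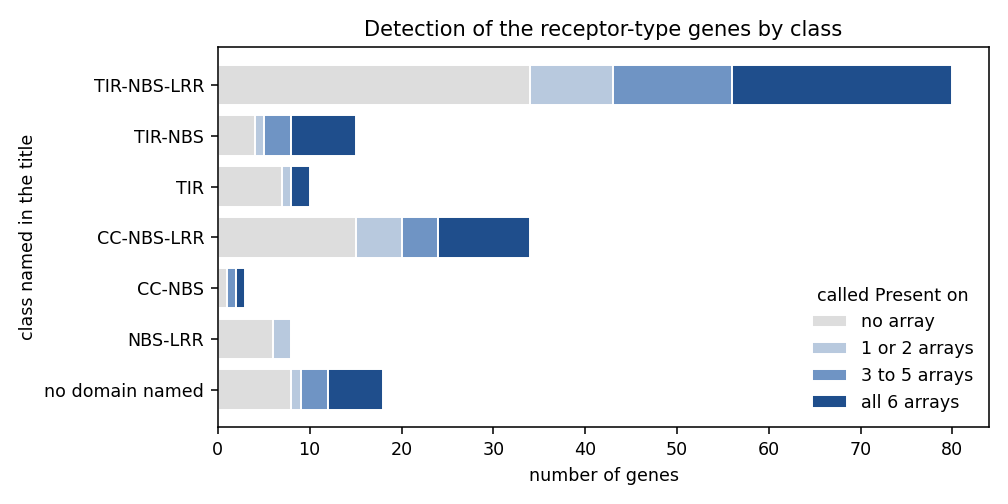
Number of genes (x axis) in each title class (y axis), with the bar divided by how many of the 6 arrays called the gene Present. The light grey parts hold the 75 genes with no Present call, and all 8 genes titled NBS-LRR alone fall in the parts below 3 arrays.

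Of the 74 tested genes, 16 changed, with 9 higher and 7 lower in the mutant. That is 21.6%, against a background of 28.4% of all tested probe sets (limma with Benjamini-Hochberg adjustment over all 13626, threshold 0.05). The rises were 12.2% against a background of 14.4% and the falls 9.46% against 13.9%, so the counts of receptor genes lay near or below those of leaf transcripts at large. Such shares depend on precision, and the median SE was 0.23 for the receptor genes and 0.18 for all tested probe sets. The median size of the log2 fold change, whatever its sign, was 0.32 for the receptor genes and 0.31 for all tested probe sets. Changes of at least 2-fold past the threshold were found for 4 genes, or 5.41% against 6.94%. The 3 mutant arrays lay wholly above or below the 3 wild-type arrays for 29 of the 74 (39.2%), where 42.7% of all tested probe sets did so. The median log2 fold change (mutant minus wild type) was 0.02 for the receptor genes and -0.01 for all tested probe sets. The sign of the median for the receptor genes changed with the processing, to -0.03 after quantile normalization. By the authors' deposited unadjusted p under 0.05, 18 of the 74 passed, against a background of 32.8%. The quartiles were -0.24 and 0.34 for the receptor genes and -0.31 and 0.32 for all tested probe sets.

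**Figure D2:**
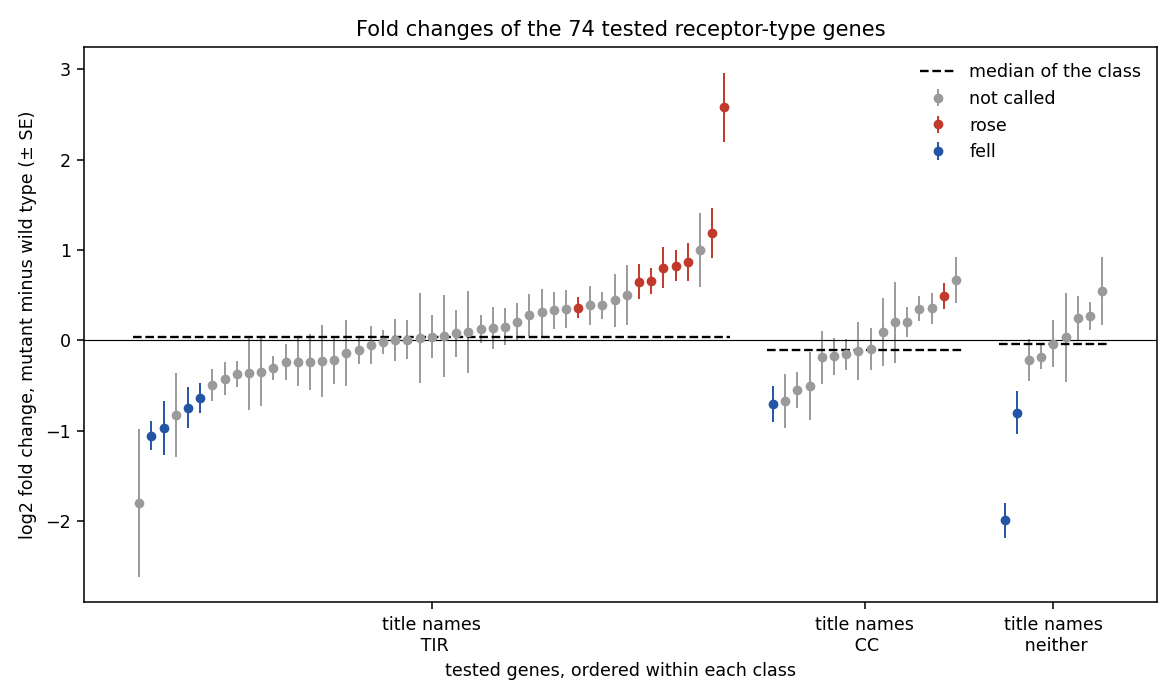
Log2 fold change (y axis, mutant minus wild type, bars are ± SE from the fit on 3 arrays against 3) of each tested gene, ordered within the genes whose titles name TIR, CC or neither (x axis). Class medians (dashed) lie near 0, and most of the 16 changed genes lie between 0.3 and 1.2 in size, with AT1G72920 at 2.58 and AT5G45490 at -1.99 standing outside that range.

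Titles that name TIR and titles that name CC were counted apart, against the same background of 28.4% changed, 14.4% risen and 13.9% fallen. Of 49 tested TIR genes, 8 rose and 4 fell (24.5% changed, median log2 fold change 0.04). Of 16 tested CC genes, 1 rose and 1 fell (12.5%, median -0.10). Of the 9 tested genes whose titles name neither, none rose and 2 fell. The changed shares of the TIR and CC genes were both under 28.4%, and the difference between them was not tested.

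Of the 12 TIR genes that changed, 6 were of the short TIR-NBS type, which lacks the leucine-rich repeats that in full-length receptors take part in recognition. Of the 10 tested TIR-NBS genes, 4 rose, 2 fell and 4 did not pass, against a background of 14.4% risen and 13.9% fallen, with a median log2 fold change of 0.58. These 10 are not spread evenly: 4 of them, with 3 of the 4 rises, stand in a single group of neighbours on chromosome 1, described below. The 37 tested TIR-NBS-LRR genes, the full-length type, held 4 that rose and 2 that fell (16.2% changed, against 28.4%), with a median of 0.01. The difference between these types was not tested. The remaining 2 tested genes are titled TIR alone and neither passed: the log2 fold change was -0.49 for AT1G61100 (adjusted p = 0.0542) and 0.0014 for PP2-A5, which joins a TIR domain to a phloem lectin (adjusted p = 0.997).

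The largest rise of the whole set was that of AT1G72920, a TIR-NBS gene. Its signals were 502, 557 and 544 on the mutant arrays and 187, 84.1 and 45.2 on the wild-type arrays. Every mutant array stood well above the wild-type arrays, which differed among themselves, and the gene was Present on 2 of 3 of these. This gave a log2 fold change of 2.58 (SE 0.38, adjusted p = 0.000252), which passed the threshold with any single array left out (adjusted p from 2.23e-06 to 0.00258). In the authors' deposited table the ratio of means was 5.06 with an unadjusted p of 0.000715.

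AT1G72920 stands in a group of 9 such genes on chromosome 1, from AT1G72840 to AT1G72950, in the gene order of the RefSeq annotation (TAIR10.1). Groups were formed, after the values had been seen, from genes with at most 8 annotated protein-coding genes between neighbours, and 106 of the 163 genes with a place in that order fell into 35 groups of 2 to 9. In this group 4 genes were tested, all of the TIR-NBS type, and 3 of them rose, where 14.4% of all tested probe sets did. Since the group was picked for this, the count is a description. AT1G72900 read 591, 725 and 671 on the mutant arrays and 321, 365 and 437 on the wild-type arrays, a log2 fold change of 0.83 (SE 0.17, adjusted p = 0.00268). AT1G72940 read 687, 744 and 748 on the mutant arrays and 549, 405 and 283 on the wild-type arrays, a log2 fold change of 0.87 (SE 0.21, adjusted p = 0.00711). In both the groups of arrays did not overlap, and both calls held with any single array left out. The fourth, AT1G72890, read 530.0, 602 and 472 on the mutant arrays and 644, 435 and 299.6 on the wild-type arrays. Its arrays overlapped and its log2 fold change of 0.28 did not pass (adjusted p = 0.402). Of the other 5, 3 had no Present call, and AT1G72850 was Present on 2 mutant arrays only, at 65.3, 28.1 and 122 against 35.9, 33.7 and 90.5. AT1G72860 was Present on 1 wild-type array only, at 31.9, 81.8 and 96.6 on the mutant arrays against 121, 78.3 and 116. The arrays of both genes overlapped.

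**Figure D3:**
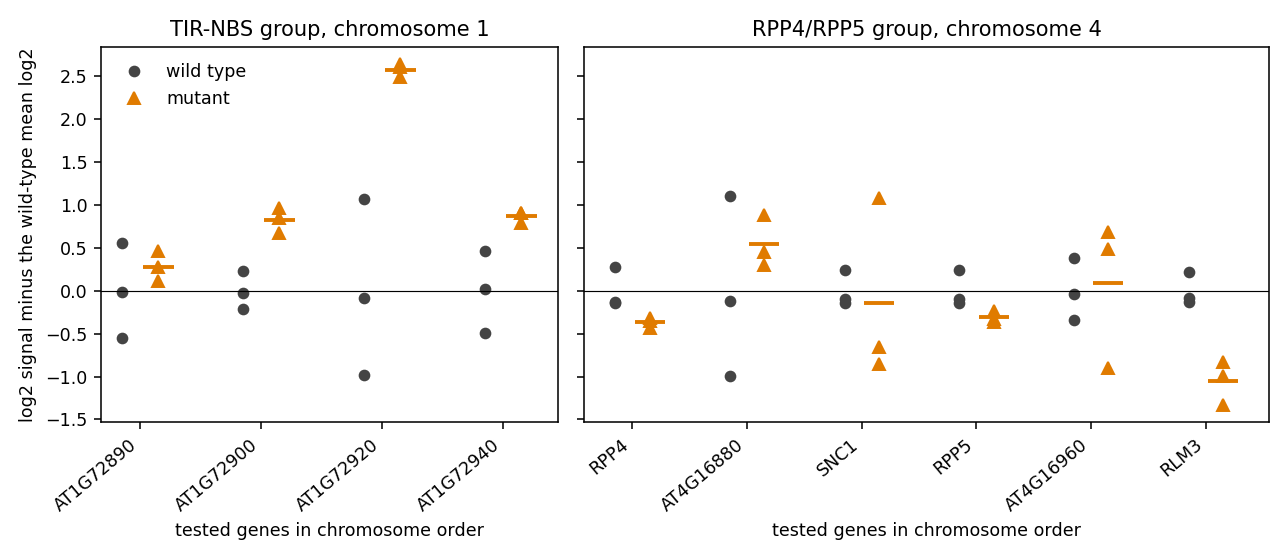
Log2 signal of each array minus the gene's wild-type mean log2 (y axis) for the tested genes of 2 groups of neighbours in chromosome order (x axis); circles are wild-type arrays, triangles mutant arrays and short lines mutant means. In the chromosome 1 group AT1G72900, AT1G72920 and AT1G72940 lie above all wild-type arrays, and in the RPP4/RPP5 group RLM3 lies farthest below.

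Other TIR-NBS genes moved in both directions. AT3G04210 read 1164, 1125 and 1199 on the mutant arrays and 957, 528 and 805 on the wild-type arrays, with all mutant arrays higher. Its log2 fold change of 0.65 (SE 0.19, adjusted p = 0.0203) lost its call without any one of the mutant arrays (adjusted p = 0.0546, 0.0544 and 0.0605 without replicates 1, 2 and 3) or wild-type replicate 2 (0.41, adjusted p = 0.0910), and without the variance trend (adjusted p = 0.0698). AT4G09420 read 166, 143 and 175 on the mutant arrays and 253, 250.2 and 307 on the wild-type arrays, all lower in the mutant (log2 fold change -0.74, SE 0.23, adjusted p = 0.0257). Leaving out mutant replicate 1 or 2 moved its adjusted p to 0.0517 and 0.0865, leaving out wild-type replicate 2 or 3 moved it to 0.0552 and 0.0831, and dropping the detection filter moved it to 0.0828. AT1G66090 read 246, 149.6 and 205 on the mutant arrays and 95.4, 54.9 and 179.9 on the wild-type arrays, which overlapped, and its log2 fold change of 1.00 did not pass (adjusted p = 0.0822). For AT1G66090 the value was 1.44 without wild-type replicate 3 (adjusted p = 0.0142) and 0.58 without wild-type replicate 2 (adjusted p = 0.282). AT1G69550 and AT5G46490 had 0.21 and 0.50 (adjusted p = 0.486 and 0.286).

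**Figure D4:**
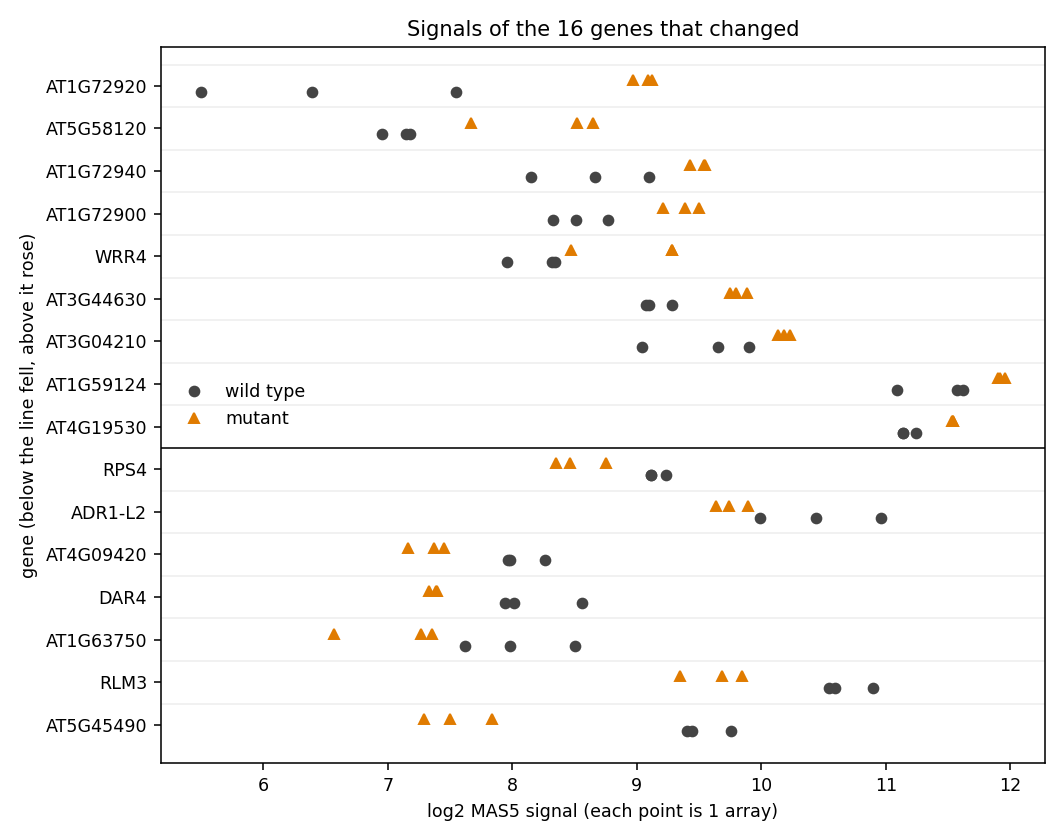
Log2 MAS5 signal (x axis) on each wild-type array (circles) and mutant array (triangles) for the 16 changed genes (y axis), with the 7 that fell below the line and the 9 that rose above it. For each of the 16 genes the circles and triangles do not overlap, as for 42.7% of all tested probe sets. The genes were picked for passing the test on these arrays, so the lack of overlap is no further evidence. Signals of different genes come from different probes and are not comparable in level.

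The fall of RLM3 was the largest among genes titled with a TIR domain that passed the test. RLM3 encodes a TIR-NBS protein that takes part in resistance to the fungi Leptosphaeria maculans and Botrytis cinerea. Its signals were 921, 821 and 652 on the mutant arrays and 1910.1, 1544 and 1496 on the wild-type arrays. All mutant arrays were lower, with a log2 fold change of -1.05 or a 2.08-fold fall (SE 0.16, adjusted p = 0.000298), and the call held with any single array left out.

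RLM3 lies at the end of the group on chromosome 4 that holds RPP4 and RPP5, receptors for the downy mildew pathogen, and SNC1, whose gain-of-function allele is known to cause constant defence and stunted growth. Of 9 genes in the group, 6 were tested and RLM3 alone passed the threshold (16.7%, against a background of 28.4% of all tested probe sets). RPP4 read 1275, 1308 and 1206 on the mutant arrays and 1979, 1482 and 1474 on the wild-type arrays, and RPP5 2394, 2248 and 2201 on the mutant arrays and 3331, 2646 and 2553 on the wild-type arrays. Both were lower on all mutant arrays, but neither passed, with -0.37 for RPP4 (adjusted p = 0.0741) and -0.31 for RPP5 (adjusted p = 0.0988) on the log2 scale. SNC1 read 332, 1272 and 383 on the mutant arrays and 709, 562 and 544 on the wild-type arrays. Mutant replicate 2 stood above all wild-type arrays and the other 2 mutant arrays below them. With all arrays the log2 fold change of SNC1 was -0.14 (adjusted p = 0.811), and without mutant replicate 2 it was -0.75 (adjusted p = 0.0192), while without mutant replicate 1 it was 0.22. AT4G16880, titled disease resistance protein-related, read 401, 604 and 446 on the mutant arrays and 703, 301 and 164 on the wild-type arrays, which overlapped widely. Its log2 fold change was 0.55 (adjusted p = 0.307), and it passed in the fit without wild-type replicate 1 (1.10, adjusted p = 0.00677) and was 0.05 without wild-type replicate 3 (adjusted p = 0.925). AT4G16960, read by shared probes, had 0.09 (adjusted p = 0.906).

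Among full-length TIR-NBS-LRR genes the largest rise was that of AT5G58120. It read 402, 368 and 203 on the mutant arrays and 124, 145 and 142 on the wild-type arrays, a log2 fold change of 1.19 (SE 0.28, adjusted p = 0.0059). The groups did not overlap, and AT5G58120 was Present on 2 of the 3 wild-type arrays. WRR4, a receptor for the white rust pathogen Albugo candida, read 355, 623 and 624 on the mutant arrays and 319, 326 and 248 on the wild-type arrays. Mutant replicate 1 lay just above the wild-type range and the other 2 mutant arrays well above it. WRR4 thus rose by 0.81 on the log2 scale (SE 0.23, adjusted p = 0.0167). Its adjusted p became 0.0888 and 0.0766 when mutant replicate 2 or 3 was dropped, 0.0547 when wild-type replicate 3 was, and 0.0511 with no variance trend. AT3G44630 read 944, 889 and 858 on the mutant arrays and 624, 540.0 and 547 on the wild-type arrays. Its rise of 0.66 on the log2 scale (SE 0.14, adjusted p = 0.00388) held with any single array left out, as did that of AT5G58120.

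AT4G19530, on chromosome 4 beside RPP2A (AT4G19500) and RPP2B (AT4G19510), a pair needed together for downy mildew resistance, rose slightly. It read 2972, 2968 and 2966 on the mutant arrays and 2256, 2423 and 2252 on the wild-type arrays. The 3 mutant signals were almost equal and all above wild type, for a log2 fold change of 0.36 (SE 0.11, adjusted p = 0.0299), but the call ended with any single array left out (adjusted p from 0.0530 to 0.0922) and without the variance trend (adjusted p = 0.0693). RPP2A read 1228, 1224 and 934 on the mutant arrays and 899.5, 896 and 778 on the wild-type arrays, and RPP2B 303, 231 and 281 on the mutant arrays and 227, 181 and 212 on the wild-type arrays. Both were also higher on every mutant array. Neither log2 fold change passed, at 0.39 (adjusted p = 0.0727) and 0.39 (adjusted p = 0.206). Without mutant replicate 3, RPP2A passed (0.52, adjusted p = 0.0270), as it did with array weights (0.42, adjusted p = 0.0332), while other arrays left out took its adjusted p as high as 0.229.

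The TIR-NBS-LRR genes that fell were RPS4 and AT1G63750. RPS4 pairs with RRS1, a receptor that carries a WRKY domain, to recognise the Pseudomonas syringae effector AvrRps4, and the genes stand next to each other on chromosome 5. RPS4 read 430.5, 353 and 327 on the mutant arrays and 603, 555 and 555 on the wild-type arrays. All mutant arrays were lower, for a log2 fold change of -0.63 (SE 0.17, adjusted p = 0.0117), and RPS4 kept its call with any single array left out. RRS1 read 136, 229.7 and 196 on the mutant arrays and 111, 156 and 142 on the wild-type arrays, which overlapped, for a log2 fold change of 0.44 (SE 0.30, adjusted p = 0.295). The log2 signal of RRS1 minus that of RPS4 rose by 1.08 from wild type to mutant, with no overlap between groups. Because the pair was picked after its values had been seen, this difference is a description. As a test of one value on 3 arrays against 3, its two-sided exact permutation p of 0.1 is the smallest possible. AT1G63750 read 163, 95 and 154 on the mutant arrays and 197, 252 and 363 on the wild-type arrays. All mutant arrays were lower, with a log2 fold change of -0.97 (SE 0.30, adjusted p = 0.0269). The adjusted p rose past the threshold when mutant replicate 2 (0.110), wild-type replicate 2 (0.0674) or wild-type replicate 3 (0.117) was dropped, and with no detection filter (0.0762).

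The lowest estimate among TIR-NBS-LRR genes did not pass. AT5G46510 read 47.9, 131 and 8.2 on the mutant arrays and 103, 109 and 193 on the wild-type arrays, so that 1 mutant array lay inside the wild-type range and 2 below it. Its log2 fold change was -1.80 with an SE of 0.82 (adjusted p = 0.119), with 1 Present call among mutant arrays and 2 among wild-type arrays, and single arrays moved it widely, to -2.70 without mutant replicate 2 (adjusted p = 0.0356) and -0.71 without mutant replicate 3 (adjusted p = 0.350). RPS6, a receptor of the same group of neighbours that recognises the Pseudomonas effector HopA1, had 0.14 (adjusted p = 0.694).

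Helper receptors of the ADR1 family are CC-type proteins that relay signals from other receptors. Of 3 tested, 1 passed, against a background of 28.4% of all tested probe sets, and ADR1-L3 had no Present call. The mean values of the 3 were lower in the mutant, but the estimate for ADR1 changed sign with 1 array left out. ADR1-L2 read 950.3, 797 and 856 on the mutant arrays and 1018, 1391 and 1989 on the wild-type arrays, with a log2 fold change of -0.71 (SE 0.20, adjusted p = 0.0175). Wild-type replicate 3 was the highest array and mutant arrays were all lower than wild type. Without wild-type replicate 3 the log2 fold change was -0.46 (adjusted p = 0.0672), and dropping mutant replicate 2, mutant replicate 3 or the variance trend gave an adjusted p of 0.0719, 0.0501 and 0.0704. ADR1-L1 read 973, 965 and 958 on the mutant arrays and 1104, 1231 and 2062 on the wild-type arrays, again with the groups apart. It missed the threshold at -0.55 (SE 0.20, adjusted p = 0.0506), and it passed without wild-type replicate 1 (-0.72, adjusted p = 0.0111), in the fit with replicate blocks (adjusted p = 0.0429), after quantile normalization (adjusted p = 0.0493), with an offset of 50 (adjusted p = 0.0458) and when a Present call on all 6 arrays was required (adjusted p = 0.0435). Without wild-type replicate 3, its highest array, the value was -0.27 (adjusted p = 0.194), and without the variance trend the adjusted p was 0.129. ADR1 read 429, 261 and 229.6 on the mutant arrays and 528, 302 and 237 on the wild-type arrays, which overlapped (-0.19, adjusted p = 0.675). Without wild-type replicate 1 the value for ADR1 was 0.14 (adjusted p = 0.753). The NRG1-type helper gene AT5G66900, whose probes are shared with other transcripts, read 524, 444 and 605 on the mutant arrays and 425, 420.0 and 378 on the wild-type arrays, higher on all mutant arrays but short of the threshold (0.35, adjusted p = 0.138).

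Among tested CC genes outside the ADR1 and NRG1 helper types, AT1G59124 rose. It read 3822, 3973 and 3856 on the mutant arrays and 3154, 2178 and 3049 on the wild-type arrays, a log2 fold change of 0.49 (SE 0.14, adjusted p = 0.0198), with wild-type replicate 2 lowest. Without that array the value was 0.32 (adjusted p = 0.0977), and the adjusted p was 0.0726 without mutant replicate 2 and 0.0750 without the variance trend. RPM1, which guards the host protein RIN4 against Pseudomonas effectors, read 278, 188 and 265 on the mutant arrays and 153, 165 and 136 on the wild-type arrays. All mutant arrays were higher but the log2 fold change of 0.67 did not pass (SE 0.25, adjusted p = 0.063). It passed without mutant replicate 2 (0.85, adjusted p = 0.0468) and without the variance trend (adjusted p = 0.0379), and with other arrays left out the adjusted p reached 0.202. RPS2, another guard of RIN4, read 109.6, 136 and 155 on the mutant arrays and 193, 114 and 134 on the wild-type arrays, which overlapped (-0.12, adjusted p = 0.825). RPP13, a downy mildew receptor, was 1027 ± 48.9 in the mutant and 807 ± 68.5 in wild type (SD, n = 3; log2 fold change 0.35, adjusted p = 0.0741, and 0.0310 with array weights). ZAR1, whose protein assembles into a membrane channel when activated, was 1703 ± 22.3 in the mutant and 1507 ± 358 in wild type (SD, n = 3; log2 fold change 0.20, adjusted p = 0.378). LOV1 and RFL1 had no Present call and SUMM2 had 1, as did the TIR receptors RAC1 (AT1G31540) and VICTR (AT5G46520). RLM1 had none.

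Of genes whose titles name no domain, AT5G45490 fell the most of the whole set. It read 181, 229 and 157 on the mutant arrays and 696, 863 and 677 on the wild-type arrays, with no overlap. This was a 3.97-fold fall, or -1.99 on the log2 scale (SE 0.19, adjusted p = 9.31e-06), and it held with any single array left out. Its probe set carries the suffix for probes shared between transcripts, so the signal may come from more than 1 gene. In the authors' deposited table the ratio of means was 0.253 with an unadjusted p of 0.000897.

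DAR4, also known as CHS3, encodes a receptor fused to a LIM domain and stands beside its partner gene CSA1 on chromosome 5. DAR4 read 161, 169 and 168 on the mutant arrays and 246, 259 and 378 on the wild-type arrays. All mutant arrays were lower, with a log2 fold change of -0.80 (SE 0.24, adjusted p = 0.0213), and DAR4 was Present on 2 of 3 of them. The adjusted p was 0.0545 and 0.0531 with mutant replicate 1 or 2 dropped, 0.0942 with wild-type replicate 3 dropped and 0.0663 with no detection filter. CSA1 read 632, 584 and 511 on the mutant arrays and 608, 606 and 646 on the wild-type arrays, with overlap (-0.11, adjusted p = 0.62). The log2 signal of DAR4 minus that of CSA1 fell by 0.69 from wild type to mutant without overlap, and its two-sided exact permutation p was again 0.1, the smallest possible (0.1 also when adjusted over both receptor pairs, which were picked after their values were seen).

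EDS1, the hub of TIR receptor signalling, read 324, 270.2 and 282 on the mutant arrays and 190.1, 325 and 430.2 on the wild-type arrays, and the mutant arrays lay inside the wild-type range (-0.04, adjusted p = 0.935). RAR1, the co-chaperone that stabilises receptors, read 555, 502 and 530.3 on the mutant arrays and 465, 441 and 410.1 on the wild-type arrays, higher on every mutant array but short of the threshold (0.27, adjusted p = 0.212). TTR1 (AT5G45050), titled disease resistance protein-related, had -0.22 (adjusted p = 0.535).

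None of the remaining well-known TIR receptors passed the test, and the estimate for RPP1 was imprecise (SE 0.38). LAZ5 was 742 ± 96.6 in the mutant and 679 ± 79.6 in wild type (SD, n = 3; log2 fold change 0.13, adjusted p = 0.59), and TAO1 was 263 ± 43 in the mutant and 260.3 ± 32.5 in wild type (SD, n = 3; log2 fold change 0.01, adjusted p = 0.983). RPP1, read by shared probes and Present on 3 of 6 arrays, was 116 ± 17.1 in the mutant and 158 ± 64.4 in wild type (SD, n = 3; log2 fold change -0.35, adjusted p = 0.526). Of the 30 receptors with a known role on the array, 24 were tested; 1 rose, 4 fell and 19 did not pass (20.8% changed and 16.7% fell, against a background of 28.4% and 13.9%), with a median log2 fold change of -0.11. The 58 receptor-type genes that did not pass ran from -1.80 to 1.00 on the log2 scale. For many of them the precision is low, since the median SE was 0.23 for the 74 genes and 0.18 for all tested probe sets.

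Genes that work with the receptors were taken from a list of signalling partners and chaperones, EDS1 and RAR1 included. Of 16 on the array 14 were tested, 1 rose and 1 fell (14.3%, against a background of 28.4%), with a median log2 fold change of -0.04. HSP90.2 (symbol HSP81-2), the chaperone that folds receptors together with SGT1 and RAR1, rose from 1813, 1825 and 1040.4 on the wild-type arrays to 3489, 3526 and 2941 on the mutant arrays. Every mutant signal was higher, with a log2 fold change of 1.13 (SE 0.19, adjusted p = 0.000646). CRT1 (MORC1), an ATPase that binds receptors, read 247, 351 and 218 on the mutant arrays and 397, 369 and 435 on the wild-type arrays. Its log2 fold change of -0.59 (SE 0.21, adjusted p = 0.0491) was at the edge of the threshold: without mutant replicate 1 or 3 the adjusted p was 0.129 and 0.160, without wild-type replicate 1, 2 or 3 it was 0.0889, 0.0803 and 0.122, and median centring gave 0.0541, replicate blocks 0.0645, no variance trend 0.0688, no detection filter 0.108 and array weights 0.115. RIN4, the protein guarded by RPM1 and RPS2, read 995, 899 and 834 on the mutant arrays and 1393, 1133 and 1089 on the wild-type arrays. RIN4 was lower on all mutant arrays, with a log2 fold change of -0.40 that did not pass (adjusted p = 0.0556, and from 0.0463 without wild-type replicate 3 to 0.189 without wild-type replicate 1). PBS1 (0.03), the SGT1 genes SGT1A (-0.11) and SGT1B (-0.20), SRFR1 (0.21), a negative regulator of receptor levels, and the salicylic acid genes NPR1 (-0.27) and ICS1 (symbol EDS16, -0.05) gave log2 fold changes with adjusted p from 0.227 to 0.921. SAG101 (-0.22, adjusted p = 0.619), BON1 (0.06, adjusted p = 0.888) and BAP1 (0.32, adjusted p = 0.500) did not pass either. PAD4 had 1 Present call and FMO1 none.

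Small RNA pathways are known to lower receptor transcripts, through secondary small interfering RNAs made by RDR6 and DCL4. Of 7 genes of this machinery 5 were tested, 1 fell and none rose (20.0%, against a background of 28.4%). RDR6, the RNA-dependent RNA polymerase, read 458, 421 and 381 on the mutant arrays and 611, 571 and 649 on the wild-type arrays. Mutant signals were all lower, with a log2 fold change of -0.54 (SE 0.16, adjusted p = 0.0191). Dropping mutant replicate 2, mutant replicate 3 or wild-type replicate 3 gave an adjusted p of 0.0569, 0.0597 and 0.0524. DCL4 (0.21), DCL1 (0.19), AGO1 (0.11) and HEN1 (0.47) gave log2 fold changes with adjusted p from 0.254 to 0.499, and SGS3 and HYL1 were each Present on 2 arrays.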

How the data were processed

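Signal intensities per probe set were deposited by the authors as MAS5 values scaled per array to a common mean, per the file headers, and the values averaged 1000 on each of the 6 arrays. The detection calls came from the same table, and its ratio (mean of mutant signals over mean of wild-type signals) and unadjusted p-value were deposited by the authors from an unpaired test, per the file headers. Of MAS5 settings and annotation release, no source used here says more. The value table of the series matrix held the same values, so it gave no separate alternative.

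Log2 signals of 3 mutant and 3 wild-type arrays entered a 2-group model in limma 3.58.1 (R 4.3.3), using eBayes with its variance trend on mean signal. Tests were two-sided, and p-values were adjusted by the Benjamini-Hochberg method over the 13626 probe sets called Present on at least 3 of 6 arrays. Control probe sets (62) were left out, and a change means an adjusted p under 0.05. No offset was added and no further normalization was made. In 13626 simulated probe sets of the same comparison, with 200 changed, the fit recovered 72 of 100 log2 changes of size 1 and 94 of 100 of size 2, with 11 false calls. The simulated noise was normal, with variances taken from the fit itself, and far fewer probe sets changed than the 28.4% called in the data. These figures check the code and do not give the recovery or error rate for the real arrays. The number of arrays limits the precision.

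Symbols came from RefSeq (TAIR10.1) by locus code, matched for 166 of 168 genes; where symbols differ from common receptor names both are given. No coordinates are given because no build is named for the table, and chromosome numbers are those of the locus codes. Of the 168 probe sets, 10 have a suffix for probes shared between transcripts, and close relatives among receptors may add to any signal. Members, gene lists and tests were chosen with earlier results of these data known. Named are every changed gene, the receptors on a list of those with a known role except 1 that is not reported here, changed partner and silencing genes, and some unchanged members, chosen after their values were seen, to complete a class or group of neighbours. Alternatives covered detection filter, scaling, offset, variance trend, array weights, replicate block, shared probes, the authors' p-values and leaving out each array.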

Additional observations from a re-analysis of the deposited data

How the results depend on the processing

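Counts of changed receptor-type genes ran from 11 to 18 with 1 array left out (16 with all 6), with 6 to 9 rises (9) and 3 to 9 falls (7). The 3 falls were found without wild-type replicate 3, and without the detection filter there were 4. TIR genes gave 8 to 12 (12), CC genes 1 to 3 (2), genes titled with neither 1 to 3 (2), partner genes 1 to 2 (2), silencing genes 0 to 1 (1) and all tested probe sets 2679 to 3638 (3865). CC genes numbered 4 by the authors' deposited unadjusted p under 0.05, and so did partner genes. Among the 18 receptor-type genes with such a p were 13 of the 16 found here. Genes titled with neither numbered 1 among probe sets Present on all 6 arrays, without the filter and without shared probes. Partner genes numbered 1 among probe sets Present on all 6 arrays, without the filter, with median centring, without the variance trend and under the replicate block. Of 19 named genes past the threshold, 9 kept their call in every one of the 15 alternative fits that held them, 10 lost it in at least 1, and none changed sign. Of 19 genes below the threshold that the naming rule covers, 6 passed it somewhere and 4 changed sign somewhere: SNC1 (-0.75 to 0.22 over the fits with 1 array left out, 0.18 with array weights), TAO1 (-0.10 to 0.15, -0.011 after quantile normalization), ADR1 (-0.46 to 0.14) and RPS2 (-0.28 to 0.10). Causes were not tested. Deviations of same-numbered arrays from their group means correlated at 0.02, 0.02 and 0.03, which is low, although all 6 arrays correlated best with their own number. Such deviations cancel out within each group, so these 6 matches depend on each other. Whether arrays of the same number share a source of variation was not tested. With the replicate block 17 receptor-type genes passed (9 rose and 8 fell) and 3737 probe sets in all. Titles that name a domain, a restriction added after seeing the data, left 14 changes among 65 tested genes (21.5%, against a background of 28.4%).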
